A study of Mus musculus with 6 samples.

Results

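Transporters of the Slc6 and Slc12 families were examined in lymphatic endothelial cells (LECs) of the dura mater, the outer brain membrane, where these cells form the wall of the meningeal lymphatic vessels. The members were taken by gene name, as every gene called Slc6a or Slc12a followed by a number (and, for *Slc6a20b*, by the letter b), whatever its values were. The rule found 29 of the 55401 genes in the tables, 20 of the Slc6 and 9 of the Slc12 family, and all 29 are protein coding in the GENCODE M21 annotation. *Slc6a20a*, the paralogue of *Slc6a20b*, does not match the rule and is given with the related genes. RNA was sequenced from 6 libraries, 3 of AAV-CTRL and 3 of AAV-VEGF-C mice, each a pool of 10 to 12 animals from a separate experiment, and the replicate numbers 1 to 3 mark the same experiment in both groups.

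All mice were wild type (WT), male and of the C57BL/6J strain, and all received an adeno-associated virus of serotype 9 into the cisterna magna at 4 wk of age. AAV-VEGF-C mice received the virus that encodes full-length mouse VEGF-C, the growth factor of lymphatic vessels. AAV-CTRL mice received the same kind of virus encoding a soluble part of the receptor VEGFR-3 that does not bind VEGF-C, so the control animals also carried a virus and a secreted protein. In the brain, the study saw a marker virus of this serotype in smooth muscle cells and subsets of neurons and glia, but not in endothelial cells. Whether dural LECs took up the virus is not given in the sources used here. The time between injection and sorting is not given for these libraries in the sources used here. Cells positive for LYVE-1, podoplanin and CD31 and negative for CD45 were sorted from the dorsal dura. Genes of the sort and of lymphatic identity (*Lyve1*, *Pdpn*, *Pecam1*, *Prox1* and *Flt4*) were detected in all 6 libraries.

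Slc6 proteins use the sodium gradient, and most of them chloride too, to carry small molecules into cells. Their substrates include the transmitters GABA, glycine, dopamine, noradrenaline and serotonin, the osmolyte taurine, creatine and neutral amino acids, and the transmitter carriers are known from nerve terminals and glia. Slc12 proteins move chloride together with potassium, sodium or both without transporting net charge. The inward carriers NKCC1, NKCC2 and NCC load cells with chloride, while the outward carriers of the KCC group remove potassium and chloride from swollen cells, and the WNK and SPAK kinases set the balance of both arms by phosphorylation. NKCC2 and NCC are known from the kidney tubule, and KCC2 from mature neurons.

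Promoter sequences were available from RefSeq for 20 members, with 34 windows of 250 bases before an annotated start (build GRCm38.p6). Members with no entry included *Slc12a2*, *Slc6a15*, *Slc6a18*, *Slc6a2*, *Slc6a6*, *Slc6a7* and *Slc6a8*. The windows held a median of 6.5 CG pairs, beside 6 over all 32851 windows of the table. The 4 windows printed here belong to the members on which the results turn. They come from the most abundant Slc12 member, from the most abundant member with a higher count in AAV-VEGF-C, from the member called under the most settings, and from a carrier that was almost undetected in AAV-CTRL. CG pairs are in capitals, each sequence is on the plus strand, and the windows of *Slc12a5* and *Slc12a3* stop where an exon of GENCODE M21 begins. The last C of the *Slc12a5* sequence is in capitals because the G of its pair is the first base of that exon.
Slc12a7 chr13:73763447-73763696: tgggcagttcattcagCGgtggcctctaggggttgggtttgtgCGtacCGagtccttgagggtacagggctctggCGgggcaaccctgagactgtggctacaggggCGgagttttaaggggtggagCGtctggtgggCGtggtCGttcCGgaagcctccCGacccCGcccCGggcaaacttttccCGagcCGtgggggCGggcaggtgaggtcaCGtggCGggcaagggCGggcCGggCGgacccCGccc
Slc12a5 chr2:164960596-164960801: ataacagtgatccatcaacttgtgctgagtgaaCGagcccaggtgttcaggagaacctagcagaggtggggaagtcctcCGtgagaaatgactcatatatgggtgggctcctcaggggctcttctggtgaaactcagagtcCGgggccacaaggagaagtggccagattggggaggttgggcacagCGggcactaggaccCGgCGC
Slc12a3 chr8:94328958-94329200: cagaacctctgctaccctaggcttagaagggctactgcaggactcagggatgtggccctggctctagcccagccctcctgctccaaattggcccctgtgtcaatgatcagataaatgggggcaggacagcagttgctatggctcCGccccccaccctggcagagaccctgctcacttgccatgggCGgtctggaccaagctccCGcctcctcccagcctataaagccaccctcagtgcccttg
Slc6a3 chr13:73536497-73536746: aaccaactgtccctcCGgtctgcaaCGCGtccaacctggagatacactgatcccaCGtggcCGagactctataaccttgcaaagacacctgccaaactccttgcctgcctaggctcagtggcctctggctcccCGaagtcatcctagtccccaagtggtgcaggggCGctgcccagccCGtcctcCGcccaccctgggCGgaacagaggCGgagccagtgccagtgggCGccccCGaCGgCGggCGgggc

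The *Slc12a7* window lies inside the gene span of GENCODE M21, which has a further upstream start, and it held 21 CG pairs, a number reached by 16.3% of all windows. The *Slc6a3* window held 16, reached by 25.4% of windows, and the full *Slc12a3* window held 3, reached by 71.0%. The full *Slc12a5* window held 13, reached by 31.5%. A further window of *Slc12a5*, not printed, held 16, and a further one of *Slc12a7* held 15. The letters TATAAA, searched on both strands, occur in 12.4% of all windows and in 1 window of the members, that of *Slc12a3*. The letters GGGCGG, also searched on both strands, occur in 32.7% of all windows and in 11 of the 34 windows of the members. CG pairs are therefore many in a window of an abundant member and in a window of a nearly undetected one.

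Depth and the reads on genes that endothelium does not use differed between the groups. The totals of counts assigned to genes were 6530269 to 12399498 in AAV-CTRL and 564475 to 3261935 in AAV-VEGF-C, with no overlap (the mean was 0.196 times that of AAV-CTRL, p = 0.1 by a two-sided exact permutation test, which cannot go lower with 3 libraries a group). Gene families not known to be used by endothelium (1935 genes of olfactory, vomeronasal and taste receptors, keratin-associated proteins and defensins, their pseudogenes included), called silent families here, took 159 to 293 CPM (counts scaled to the total of the library) in AAV-CTRL and 2884 to 7053 CPM in AAV-VEGF-C. The AAV-VEGF-C mean was 21.7 times the other, again with no overlap (exact permutation p = 0.1). By the test used below, 181 of the 210 tested had a higher count there, beside 10.5% of all genes tested. A gene that passes the low-count filter described below only through AAV-VEGF-C has to differ. Of all such genes, 46.4% were called higher and 0 lower. How many of the 210 entered in this way was not counted, so the 181 are no evidence on direction. The sums in CPM do not depend on the filter. The part of the silent families in the results on the transporters was not tested, so the read density of each member is set against theirs further on. In bulk RNA, fewer cells that express a gene and less RNA per cell cannot be told apart.

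Levels of the 29 members were first ordered in AAV-CTRL by TPM, a unit that corrects for gene length. The taurine carrier *Slc6a6* was the most abundant member, with a mean of 99.9 ± 32.6 TPM (SD, n = 3). The KCC4 gene *Slc12a7* followed with 35.1 ± 14.1 TPM, then the NKCC1 gene *Slc12a2* with 20.8 ± 5.42 and the KCC1 gene *Slc12a4* with 15.6 ± 4.25 TPM. The creatine carrier *Slc6a8* had 12.5 ± 3.47 TPM and the vesicular amino acid carrier *Slc6a17* 5.596 ± 1.64 TPM. In all, 7 members were above a mean of 5 TPM. *Slc12a7* overlapped *Slc12a2* and was below it in AAV-CTRL 1 (19.7 against 22.4 TPM). The neighbours *Slc12a2*, *Slc12a4* and *Slc6a8* overlapped between libraries too, so these ranks are not separated by their spread. *Slc6a6*, in contrast, was above every other member in each AAV-CTRL library. *Slc6a6* alone took 39.1% to 49.3% of the summed TPM of all members in AAV-CTRL and 11.1% to 30.5% in AAV-VEGF-C. The summed TPM of all members was 191.8, 179.7 and 292.4 in AAV-CTRL 1, 2 and 3, against 63.0, 115.0 and 140.4 in AAV-VEGF-C 1, 2 and 3. Every AAV-VEGF-C library was thus below every AAV-CTRL library in this sum (exact permutation p = 0.1). *Slc6a6* was its largest part in all libraries but AAV-VEGF-C 1, where *Slc12a5* was (25.8 TPM, beside 7.02 of *Slc6a6*). Among all tested genes, 36.4% were likewise below in TPM in every AAV-VEGF-C library, and 12.8% were above.

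**Figure D1:**
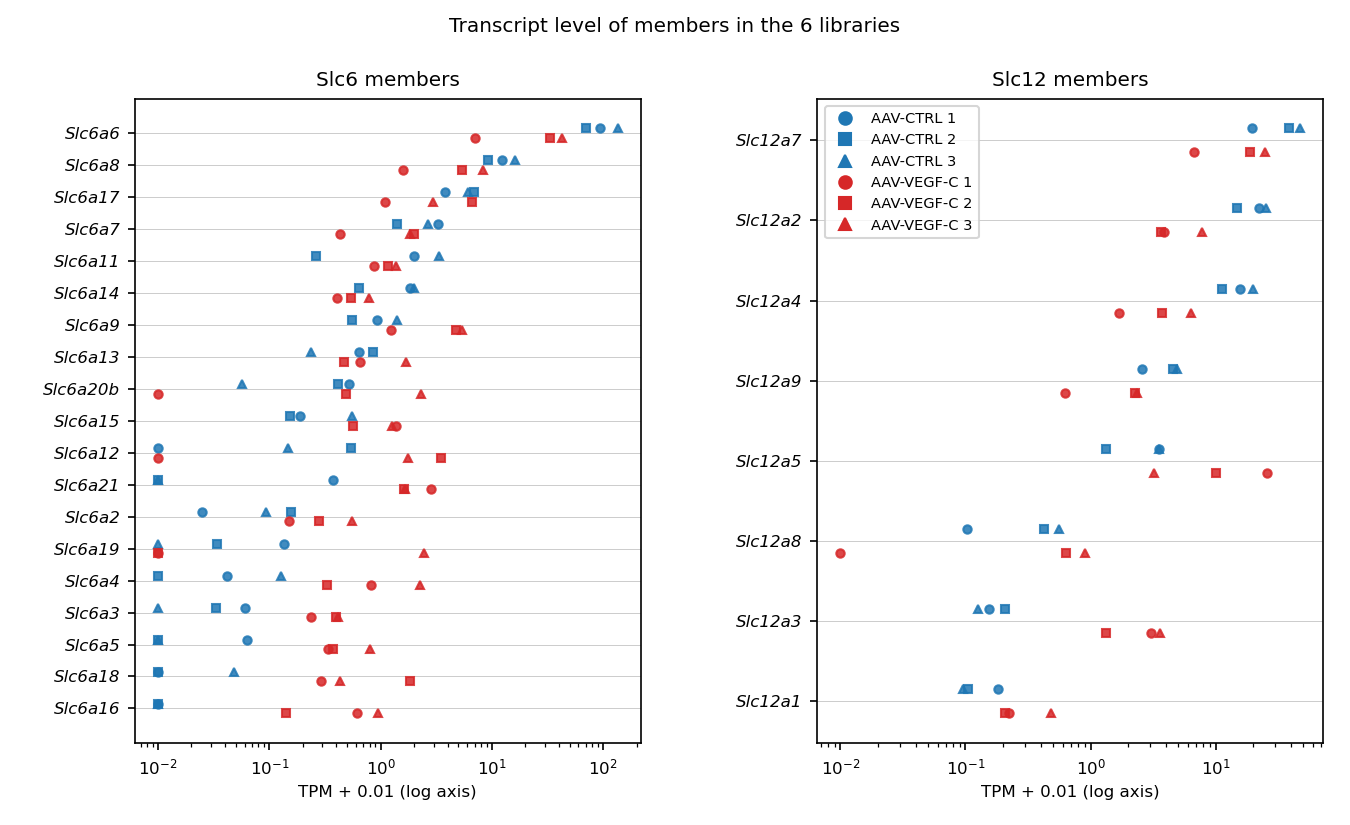
TPM of 27 members plus 0.01, on log axes, with AAV-CTRL libraries in blue and AAV-VEGF-C libraries in red and 1 symbol per replicate number. The taurine carrier Slc6a6 had 70.2 to 134.8 TPM in AAV-CTRL and 7.02 to 42.8 TPM in AAV-VEGF-C, while carriers at the foot of the left panel were at or near 0 in AAV-CTRL.

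The comparison of AAV-VEGF-C with AAV-CTRL asks which transporters differ in dural LECs after VEGF-C overexpression. By edgeR's quasi-likelihood test over 17459 genes, 9 of the 25 tested members had a higher count in AAV-VEGF-C at an adjusted p under 0.05 (background 10.5% of genes tested) and 0 had a lower count (background 0.659%). At an unadjusted p under 0.05, 12 members were higher and 2 lower (28.1% of genes, either direction). DESeq2 called 11 of the same 25 higher (14.4% of these genes) and 2 lower (2.74%). The 9 included *Slc6a18*, *Slc6a5*, *Slc6a21*, *Slc6a3*, *Slc12a3*, *Slc6a4*, *Slc12a5* and *Slc6a9*. The median log2 fold change was 1.34 over the tested members and -0.0037 over all tested genes. Of the 5 tested members with a mean under 0.5 TPM over the 6 libraries, 3 were called higher, in a band where 57.2% of all genes were. Of the 13 between 0.5 and 5 TPM, 5 were (10.5% of all genes in that band), and of the 7 at 5 TPM or more, 1 was (1.69%). Lower calls were made for 0.0731%, 0.102% and 1.45% of genes in these bands and for 0 members. The filter on low counts, which asks for 2.04 CPM in at least 3 libraries, bears on these shares. Of the 25 tested members, 11 reached that level in all libraries of AAV-VEGF-C but not in all of AAV-CTRL, and they held 7 of the 9 higher calls. A member that entered through the group where it is high had to differ, so the counts and the median above describe the tested members and are no evidence on their direction. Over all genes that entered in this way, 46.4% were called higher and 0 lower. The other 2 called, *Slc12a5* and *Slc6a9*, were among 12 members that reached the level in all libraries of both groups, where 1.25% of genes were called higher and 1.03% lower. No tested member entered through AAV-CTRL alone, as 1743 genes did (0 of them called higher and 6 lower).

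Leaving out a library changed these calls. None of the 9 passed without AAV-CTRL 2 (adjusted p from 0.0772 to 0.116), without AAV-CTRL 3 (0.0549 to 0.0955) or without AAV-VEGF-C 2 (0.0543 to 0.0898), all by edgeR's quasi-likelihood test. The fold change of all 9 was positive in each of these fits, which share most libraries with the fit that called them. Over all genes, 0.0%, 0.0% and 0.0395% were called higher in these 3 fits, and 11 or 12 members had an unadjusted p under 0.05 and a positive fold change. Without AAV-CTRL 1, 7 of the 9 were called (9.73% of genes). Members called without AAV-VEGF-C 1 included *Slc12a3*, *Slc12a5* and *Slc6a18*, beside *Slc6a12*, which was not tested with all libraries (6.13% of genes). Without AAV-VEGF-C 3, 4 of the 9 were no longer abundant enough for the test, and of the other 5 only *Slc12a3* was called (1.73% of genes). With the replicate number as a block, the same 9 were called higher (12.8% of genes) and *Slc12a2* was called lower (2.07%).

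**Figure D2:**
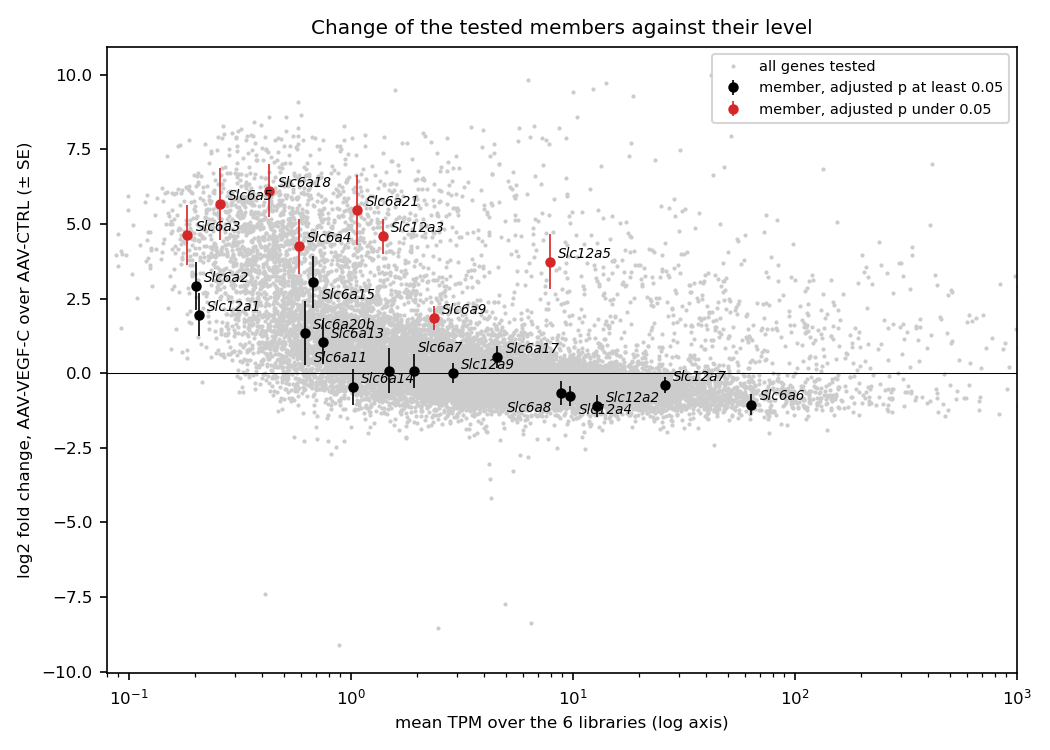
Log2 fold change of AAV-VEGF-C over AAV-CTRL with its SE against the mean TPM over the 6 libraries (log axis, without the few genes beyond its right end), for 23 of the 25 tested members (black or red) and the other genes tested (grey). Of the members called higher, 8 are drawn in red, of which Slc12a5 alone is above a mean of 5 TPM.

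The carriers of taurine and creatine were the 2 most abundant Slc6 members, and neither was called. *Slc6a6* encodes the taurine carrier TAUT, which cells raise in hypertonic medium. It had 94.6, 70.2 and 134.8 TPM in AAV-CTRL 1, 2 and 3, against 7.02, 33.0 and 42.8 TPM in AAV-VEGF-C 1, 2 and 3. Every AAV-VEGF-C library was below every AAV-CTRL library, and AAV-VEGF-C 1 was lowest. In CPM the values were 573 to 901 and 186 to 422, also without overlap. The log2 fold change was -1.05 (SE 0.36), which did not pass in edgeR (adjusted p = 0.104). DESeq2 called it lower (adjusted p = 0.0232), while the block gave an adjusted p of 0.0833 in edgeR. Reads of *Slc6a6* may be shared with *Gm44981*, whose exon overlaps it on the other strand. *Slc6a8*, the creatine carrier, had 12.4, 9.14 and 16.1 TPM in AAV-CTRL, against 1.60, 5.44 and 8.39 TPM in AAV-VEGF-C. The groups did not overlap in TPM but did in CPM, and the log2 fold change of -0.66 (SE 0.41) did not pass (adjusted p = 0.332, edgeR).

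Among the outward potassium-chloride carriers, *Slc12a7* (KCC4) and *Slc12a4* (KCC1) were abundant in AAV-CTRL and *Slc12a5* (KCC2) was not. In AAV-VEGF-C 1 and 2, *Slc12a5* was above *Slc12a4*. *Slc12a7* had 19.7, 38.3 and 47.3 TPM in AAV-CTRL, against 6.70, 18.9 and 24.9 TPM in AAV-VEGF-C. The groups overlapped, with AAV-VEGF-C 3 above AAV-CTRL 1, and the log2 fold change was -0.40 (SE 0.28, adjusted p = 0.397, edgeR). *Slc12a4* had 15.7, 11.3 and 19.8 TPM in AAV-CTRL, against 1.69, 3.75 and 6.40 TPM in AAV-VEGF-C. It did not overlap between groups in TPM or CPM, yet its log2 fold change of -0.75 (SE 0.33) did not pass (adjusted p = 0.190, edgeR), and an exon of *Gm16156* overlaps it.

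*Slc12a5*, which encodes the carrier that keeps chloride low in mature neurons, was the only member with a mean of at least 5 TPM over the 6 libraries that was called higher. Its counts were 109, 92 and 232 in AAV-CTRL 1, 2 and 3, against 213, 113 and 127 in AAV-VEGF-C 1, 2 and 3. Scaled to the library, these were 16.7, 11.7 and 18.7 CPM against 378, 78.5 and 38.9 CPM. All 3 AAV-VEGF-C libraries were higher, and AAV-VEGF-C 1 stood far above the others. In TPM, however, the values were 3.54, 1.32 and 3.54 in AAV-CTRL, against 25.8, 10.1 and 3.20 in AAV-VEGF-C, so that AAV-VEGF-C 3 lay below 2 AAV-CTRL libraries. The log2 fold change was 3.73 (SE 0.93, adjusted p = 0.0407, edgeR) with all libraries and 1.90 without AAV-VEGF-C 1 (adjusted p = 0.0465). Without any other library it was not called, with log2 fold changes from 3.53 to 4.16. Of 5 tested neuronal markers, *Stmn2* and *Rbfox3* were also called higher, while *Snap25*, the most abundant of them, had 8.55, 2.003 and 10.8 TPM in AAV-CTRL, against 1.26, 5.32 and 2.15 TPM in AAV-VEGF-C (log2 fold change -0.20, SE 0.64). *Rbfox3* was under 2.04 CPM in every AAV-CTRL library and entered the test only through AAV-VEGF-C. The groups overlapped in CPM for *Snap25*, *Syt1* and *Slc17a7*, and the part of neuronal RNA in the level of *Slc12a5* was not tested.

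The inward chloride carriers comprised an abundant member and a pair of low ones. *Slc12a2* encodes NKCC1, the widely expressed carrier that loads cells with sodium, potassium and chloride. It had 22.4, 14.7 and 25.1 TPM in AAV-CTRL, against 3.83, 3.64 and 7.82 TPM in AAV-VEGF-C. No AAV-VEGF-C library reached the lowest AAV-CTRL library, and in CPM the ranges of 143 to 232 and 53.0 to 103 did not overlap either. The log2 fold change was -1.09 (SE 0.36, adjusted p = 0.0986, edgeR). With the replicate block the value was -1.09 with an adjusted p of 0.0331 in edgeR, and DESeq2 gave an adjusted p of 0.0385.

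*Slc12a3*, the gene of the thiazide-sensitive carrier NCC of the distal kidney tubule, had 5, 7 and 6 counts in AAV-CTRL, against 10, 14 and 63 counts in AAV-VEGF-C. In TPM these were 0.144, 0.197 and 0.117 against 3.04, 1.32 and 3.55, and each AAV-VEGF-C library was above each AAV-CTRL library. Its log2 fold change was 4.58 (SE 0.57, adjusted p = 0.0193, edgeR). *Slc12a1*, the gene of NKCC2 of the thick ascending limb, had 8, 5 and 6 counts against 2, 3 and 10. Its TPM were 0.086 to 0.171 and 0.197 to 0.477, without overlap, and its log2 fold change of 1.96 (SE 0.73) did not pass (adjusted p = 0.128, edgeR). Of the kidney tubule genes chosen as markers, *Aqp2* and *Slc34a1* were called higher. Both were under the 2.04 CPM of the filter in every AAV-CTRL library, so they entered the test only through AAV-VEGF-C. *Umod*, the defining gene of the limb that uses NKCC2, had 0 counts in all AAV-CTRL libraries and 0, 1 and 13 counts in AAV-VEGF-C.

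*Slc12a9*, a relative of uncertain transport function, had 2.57 to 4.90 TPM in AAV-CTRL and 0.619 to 2.35 TPM in AAV-VEGF-C. All AAV-VEGF-C libraries were lower in TPM, whereas its log2 fold change on counts was -0.01 (SE 0.34). *Slc12a8* was too low for the test, with 3, 9 and 20 counts in AAV-CTRL, against 0, 6 and 17 counts in AAV-VEGF-C.

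The GABA carriers, which clear the inhibitory transmitter GABA from the space around synapses and in peripheral tissue also carry betaine and taurine, were all low. *Slc6a11* (GAT3) was the highest in AAV-CTRL, with 101, 14 and 200 counts, or 1.99, 0.253 and 3.34 TPM. It had 3, 19 and 40 counts in AAV-VEGF-C, or 0.857, 1.16 and 1.37 TPM. AAV-CTRL 2 was the lowest of all 6 libraries, so the groups overlapped, and the log2 fold change was 0.09 (SE 0.74) with all libraries and -0.47 without AAV-CTRL 2. The summed TPM of 6 neuronal markers was also lowest in AAV-CTRL 2 (3.15, beside 10.9 and 16.2 in AAV-CTRL 1 and 3), and its part in this value was not tested.

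*Slc6a13* (GAT2) had 0.225 to 0.847 TPM and 0.462 to 1.69 TPM and did not pass, with a log2 fold change of 1.04 (SE 0.74). *Slc6a12*, the betaine carrier BGT1, was not tested, with 0, 3 and 2 counts in AAV-CTRL, against 0, 7 and 18 in AAV-VEGF-C.

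The monoamine carriers, which return dopamine, serotonin and noradrenaline to nerve endings and are the targets of antidepressants and cocaine, were nearly undetected in AAV-CTRL. *Slc6a3*, the dopamine carrier, had 2, 1 and 0 counts in AAV-CTRL, against 2, 5 and 10 counts in AAV-VEGF-C. Pooled over the libraries of each group, its share of counts in AAV-VEGF-C was 28.8 times that in AAV-CTRL, with a 95% interval for counting error of 8.35 to 154. *Slc6a4*, the serotonin carrier, had 1, 0 and 5 counts in AAV-CTRL, against 2, 3 and 18 in AAV-VEGF-C. Both were higher in CPM in each AAV-VEGF-C library, from numbers of reads that in AAV-VEGF-C 1 were 2 for each gene. The log2 fold changes were 4.63 (SE 1.01, adjusted p = 0.0284) for *Slc6a3* and 4.25 (SE 0.92, adjusted p = 0.0278) for *Slc6a4* in edgeR. *Slc6a2*, the noradrenaline carrier, had 1, 11 and 8 counts and 2, 6 and 24 counts. Its CPM did not overlap either (0.153 to 1.40 against 3.54 to 7.38), but its log2 fold change of 2.92 (SE 0.79) missed the threshold (adjusted p = 0.0542, edgeR), and DESeq2 called it (adjusted p = 0.0277).

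Both glycine carriers were called higher. *Slc6a9* encodes GLYT1, the glial and widely expressed glycine carrier, and had 38, 23 and 79 counts in AAV-CTRL, against 8, 23 and 59 counts in AAV-VEGF-C. The CPM were 2.93 to 6.37 against 14.2 to 18.1, with all AAV-VEGF-C libraries higher, while in TPM AAV-VEGF-C 1 (1.22) lay below AAV-CTRL 3 (1.39). The log2 fold change was 1.84 (SE 0.41, adjusted p = 0.0295, edgeR), and exons of *Gm17114*, *Ccdc24* and *B4galt2* overlap the gene on the other strand. *Slc6a5* encodes GLYT2, the carrier of glycinergic nerve endings, and had 4, 0 and 0 counts in AAV-CTRL, against 5, 9 and 38 in AAV-VEGF-C. In TPM it was 0 to 0.053 against 0.326 to 0.801, without overlap, and the log2 fold change was 5.67 (SE 1.21, adjusted p = 0.0272, edgeR).

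The 7 amino acid carriers of the Slc6 family held 1 call. *Slc6a18*, an amino acid carrier of the kidney brush border, had 0, 0 and 1 counts in AAV-CTRL, against 2, 5 and 12 counts in AAV-VEGF-C. All AAV-VEGF-C libraries had more, at 3.48 to 3.68 CPM, and the pooled share was 96.7-fold higher with a counting interval of 15.4 to 4019. The fitted log2 fold change of 6.10 (SE 0.89, adjusted p = 0.0193, edgeR) rests on that single read in AAV-CTRL and depends on the prior count. *Slc6a19*, the main amino acid carrier of gut and kidney, was not tested and had 1, 1 and 0 counts against 0, 0 and 23, all of the latter in AAV-VEGF-C 3.

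*Slc6a15*, a neuronal carrier of branched amino acids and proline, had 6, 3 and 13 counts and 7, 4 and 13 counts. Its CPM did not overlap (0.382 to 1.05 against 2.79 to 12.4), and the log2 fold change of 3.05 (SE 0.86) did not pass (adjusted p = 0.0626, edgeR). The remaining 4 tested members of this role gave values nearer to 0. *Slc6a17*, which fills synaptic vesicles with neutral amino acids, had 3.75, 6.89 and 6.15 TPM in AAV-CTRL, against 1.08, 6.68 and 2.98 TPM in AAV-VEGF-C, with overlap and a log2 fold change of 0.55 (SE 0.37). *Slc6a7*, the proline carrier of excitatory nerve endings, had 1.38 to 3.30 TPM and 0.422 to 1.99 TPM and a log2 fold change of 0.06 (SE 0.56). *Slc6a14*, a carrier of neutral and cationic amino acids, had 51, 20 and 87 counts, then 2, 5 and 14 counts, and a log2 fold change of -0.47 (SE 0.60). *Slc6a20b*, whose exons overlap *Sacm1l*, had 0.047 to 0.509 TPM and 0 to 2.29 TPM and a log2 fold change of 1.34 (SE 1.07).

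The orphan members, whose substrates are not known, were absent or nearly so in AAV-CTRL. *Slc6a21* had 3, 0 and 0 counts in AAV-CTRL, against 3, 7 and 25 counts in AAV-VEGF-C, a pooled share 59.4-fold higher with a counting interval of 18.7 to 302. Each AAV-VEGF-C library was higher in CPM and TPM, and the log2 fold change was 5.48 (SE 1.17, adjusted p = 0.0272, edgeR). *Slc6a16* had 0 counts in all AAV-CTRL libraries and 2, 1 and 10 in AAV-VEGF-C. It was not tested. Its mean CPM in AAV-VEGF-C was 6.75 times a floor of 3 counts per AAV-CTRL library. AAV-VEGF-C 1 and 2 were themselves under 3 counts, so this ratio is no lower bound.

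Overlap between the groups was counted over all 29 members, tested or not. In CPM, every AAV-VEGF-C library was above every AAV-CTRL library for 13 members (13.4% of all genes) and below for 3 (6.31%), which were *Slc6a6*, *Slc12a2* and *Slc12a4*. In TPM, 9 members were above (9.41% of all genes) and 5 below (12.0%). Among the 25 tested, 12 were above and 3 below in CPM (20.6% and 19.1% of tested genes) and 8 above and 5 below in TPM (12.8% and 36.4%). The 9 called members were all above in CPM, and 6 of them were in TPM. The number of members with at least 1 count was 26, 24 and 24 in AAV-CTRL, against 25, 28 and 29 in the other group (p = 0.2, exact permutation test). With each library drawn down to the smallest total, it was 20, 18 and 16 against 25, 27 and 29, without overlap (exact permutation p = 0.1). Of all genes in the tables, 29.7% to 30.8% had at least 1 count in the drawn-down AAV-CTRL libraries and 42.5% to 50.4% in those of AAV-VEGF-C, also without overlap. The drawn-down libraries still differed in the reads on silent families, with 85 to 152 counts against 1599 to 3980, and the part of these in the members detected was not tested.

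Each member's reads per length were then divided by those of the silent families in the same library, a measure that does not depend on the total. For 7 of the 9 called members the groups overlapped, and for *Slc12a5* and *Slc6a9* every AAV-VEGF-C library was below every AAV-CTRL library. Those 7 had 0 to 6.28 times the density of the silent families in AAV-CTRL and 0.423 to 10.2 times in AAV-VEGF-C. *Slc6a3*, for example, had 1.09, 0.736 and 0 times against 0.523, 0.970 and 1.11 times. The 7 members with a mean of at least 5 TPM in AAV-CTRL had 105 to 3966 times the density there and 2.29 to 102 times in AAV-VEGF-C, all 7 without overlap. Over the 25 tested members, 16 were below in every AAV-VEGF-C library and 0 above, where 82.6% of all tested genes were below and 1.51% above. With the silent-family density subtracted from the counts, 16 members could be tested and 0 were called by edgeR as higher (0.0727% of genes) or lower (0.0%), with 4 higher and 1 lower at an unadjusted p under 0.05 (13.8% of genes).

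**Figure D3:**
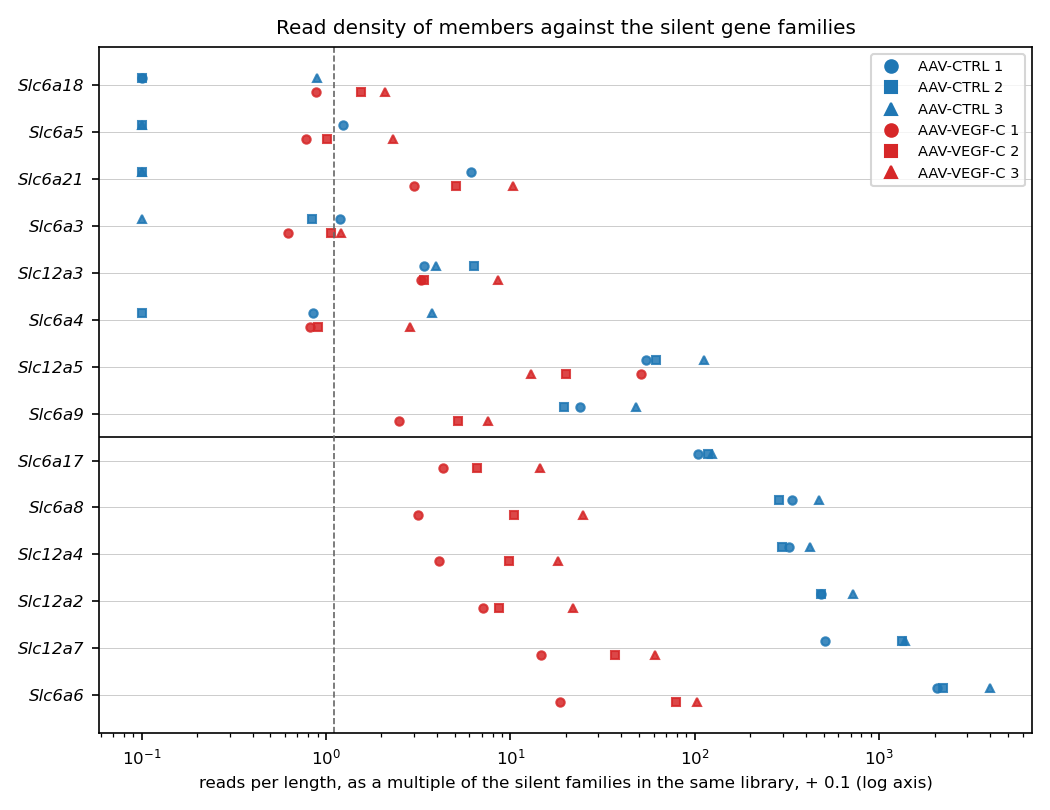
Reads per length of a member as a multiple of those of the silent gene families in the same library, plus 0.1, on a log axis, with the dashed line at equal density. Above the solid line are 8 members called higher, and below it 6 members with at least 5 TPM in AAV-CTRL, where AAV-CTRL runs from 105 to 3966 and AAV-VEGF-C from 3.05 to 102.

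Part of the family lies side by side on chromosome 13. From *Slc6a3* at chr13:73536747-73578672 (GRCm38) to *Slc12a7* at chr13:73733094-73816754, a span of 280 kb holds *Slc6a3*, *Clptm1l*, *Tert*, *Slc6a18*, *Slc6a19* with its antisense gene *Slc6a19os*, and *Slc12a7*. Its genes differed widely in level. In AAV-CTRL *Slc12a7* had 19.7 to 47.3 TPM and *Clptm1l*, a membrane protein gene, 18.5 to 22.6 TPM, while *Slc6a3*, *Slc6a18* and *Slc6a19* stayed at or below 0.126 TPM. In AAV-VEGF-C *Slc12a7* had 6.70 to 24.9 TPM and *Clptm1l* 1.37 to 7.89 TPM, and the 3 Slc6 genes between 0 and 2.44 TPM. The 2.44 TPM belong to *Slc6a19* in AAV-VEGF-C 3, and this gene had 0 counts in AAV-VEGF-C 1 and 2. *Slc6a3* and *Slc6a18* had 2 to 12 counts in each AAV-VEGF-C library. The distance between the abundant and the nearly undetected genes thus rests on a few reads and is not compared between the groups. Of the windows printed above, that of *Slc6a3* lies directly before this span, and that of *Slc12a7* lies inside it, within the gene.

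Related genes were taken from hand-written lists that were chosen with earlier results of these data known. Of 156 tested genes in these lists, 17 were called higher by edgeR (10.9%, beside 10.5% of all genes tested) and 3 lower (1.92%, beside 0.659%). The share called higher was near that of all genes, so the calls named from these lists are descriptions of single genes. A listed gene that entered the test only through AAV-VEGF-C had to differ, so its call is no evidence on direction. In the list of 13 WNK, SPAK and related regulators of Slc12 carriers, *Nedd4l*, a ubiquitin ligase, was higher and *Sgk1*, a kinase induced by salt and glucocorticoid, was lower. *Sgk1* had 30.9, 43.5 and 91.8 TPM in AAV-CTRL, against 4.14, 8.84 and 12.8 TPM in AAV-VEGF-C, far apart (log2 fold change -1.20, SE 0.26, edgeR adjusted p = 0.0267). *Nedd4l* had 6.08 to 8.76 TPM and 8.90 to 14.5 TPM, also without overlap (log2 fold change 3.17, SE 0.81, edgeR adjusted p = 0.0453). Its counts were 95, 187 and 261 in AAV-CTRL, against 172, 122 and 135 in AAV-VEGF-C. The most in that group were in AAV-VEGF-C 1, the library with the smallest total, and the rise in TPM was smaller than that fitted on counts. The most abundant kinase of the list, *Wnk1*, had 54.1 to 111.6 TPM and 9.89 to 40.4 TPM (log2 fold change -0.49, SE 0.35, edgeR adjusted p = 0.396). The SPAK gene *Stk39* gave -0.85 (SE 0.34, adjusted p = 0.152).

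The sodium pump, which maintains the gradient that Slc6 carriers use, had 12 tested subunits and regulators, with 0 called by edgeR in either direction. At an unadjusted p under 0.05, 0 were higher and 4 lower, and DESeq2 called 2 lower. Among 20 tested genes that make or break down the substrates, *Gad1*, which makes GABA, was higher, from 1, 3 and 0 counts to 6, 5 and 22 counts (log2 fold change 5.33, SE 1.09, adjusted p = 0.0249, edgeR). The abundant creatine kinase *Ckb* gave -0.48 (SE 0.26). Among 11 tested genes of cell volume control, *Lrrc8e* of the volume-regulated anion channel was higher (4.25, SE 0.90, adjusted p = 0.0264, edgeR), from 0, 2 and 7 counts to 4, 5 and 19, while *Nfat5*, the transcription factor that drives *Slc6a6* in hypertonic medium, gave -0.03 (SE 0.44). *Slc18a1*, a vesicular monoamine carrier, was the 1 gene called higher of 3 tested partners and relatives of Slc6 carriers, among which *Slc6a20a* gave 0.41 (SE 0.51).

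In 5 other families of amino acid and ion carriers, 7 of 44 tested genes were called higher (15.9%, beside 10.5% of all genes), with a mean of 0.406 to 9.50 TPM over the 6 libraries. Of 6 tested Slc1 genes, *Slc1a7* was higher, of 11 Slc7 genes *Slc7a1*, *Slc7a10* and *Slc7a3*, of 10 Slc38 genes *Slc38a8*, and of 10 Slc4 genes *Slc4a11* and *Slc4a9*, while 0 of 7 Slc9 genes were called and 0 genes of these families were lower in edgeR. At an unadjusted p under 0.05, 1 Slc9 gene was higher and 1 lower, and DESeq2 called none of the 7. *Slc1a7*, *Slc7a3*, *Slc38a8*, *Slc4a11* and *Slc4a9* were under 2.04 CPM in every AAV-CTRL library, and *Slc7a10* was in some. They reached that level in all libraries of AAV-VEGF-C alone, where 46.4% of genes were called higher and 0 lower. The share of 15.9% is therefore no evidence on the direction of these families. *Slc7a1*, a cationic amino acid carrier, had 174, 249 and 474 counts in AAV-CTRL, against 492, 271 and 211 counts in AAV-VEGF-C. Like *Slc12a5*, it had its highest CPM in AAV-VEGF-C 1, and its log2 fold change was 3.91 (SE 0.99, adjusted p = 0.0437, edgeR).

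Markers of other cells that a dural sort could hold were counted in the same way. The 8 lymphatic markers were all tested and 0 were called by edgeR or DESeq2 (0 at an unadjusted p under 0.05), with a summed level of 461 to 574 TPM in AAV-CTRL and 149 to 336 TPM in AAV-VEGF-C. Of 5 tested neuronal markers *Stmn2* (3.23, SE 0.81) and *Rbfox3* (5.05, SE 0.88) were higher on the log2 scale, the latter from 6, 2 and 2 counts to 11, 10 and 43, and the list summed to 3.15 to 16.2 TPM and 9.93 to 12.9 TPM, with overlap. Of the kidney markers, *Aqp2* and *Slc34a1* were the 2 tested and both were higher, with sums of 0.382 to 0.886 TPM and 2.53 to 5.16 TPM. Both, like *Rbfox3*, were under 2.04 CPM in every AAV-CTRL library and entered the test through AAV-VEGF-C alone. Of all genes that entered in this way, 46.4% were called higher and 0 lower, so these calls are no evidence on direction. *Sox10* of 4 tested Schwann and oligodendrocyte markers and *Itga2b* of 2 tested platelet markers were higher as well. The fibroblast markers *Dcn* and *Ogn* were lower, 2 of 6 tested, and their list summed to 934 to 1995 TPM and 237 to 784 TPM. No gene was called by edgeR or DESeq2, or had an unadjusted p under 0.05, in the blood endothelial, mural, arachnoid barrier, astrocyte, leukocyte and erythroid lists, and no mast cell marker was tested. Libraries stood apart in these sums, and those numbered 1 were low in both groups for markers of blood cells and blood vessels. The leukocyte markers summed to 6.73, 573.5 and 321.9 TPM in AAV-CTRL 1, 2 and 3, against 9.49, 297.1 and 172.5 TPM in AAV-VEGF-C 1, 2 and 3, although the sort took CD45-negative cells. The blood endothelial markers summed to 25.8, 157.8 and 476.0 TPM against 19.6, 63.5 and 54.0 TPM. The platelet list ran from 5.97 to 171.6 TPM and from 10.0 to 74.2 TPM, the erythroid list from 3.49 to 87.1 and from 0 to 41.5, and the mural list from 33.7 to 169.5 and from 7.31 to 48.0 TPM. For the arachnoid barrier list the sums were 26.5 to 32.2 and 5.77 to 18.5 TPM, without overlap, for the astrocyte list 2.55 to 10.7 and 4.35 to 10.7 TPM, and for the mast cell list 0.426 to 2.92 and 0.280 to 2.82 TPM. The part of other cell types in the levels of the transporters was not tested.

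How many members were called moved with the processing, and the share of all genes called moved too. Scaling by library size alone gave 11 higher members (11.8% of genes) and 0 lower (0.304%), the size factors of DESeq2 gave 9 (10.3%) and 0 (0.636%), and scaling on the 2000 most abundant genes gave 11 (13.2%) and 0 (0.0458%). The members added to the 9 by the first and the last of these were *Slc6a2* and *Slc6a15*. Without a filter on low counts, 14 of 29 were higher (21.1% of genes) and 2 lower (2.64%), and DESeq2 over all genes gave 13 of 29 (12.5%) and 2 (1.08%). The lower members in both were *Slc6a6* and *Slc12a2*. With voom and sample weights, 10 were higher (13.6%) and 0 lower (1.53%), and *Slc12a5* was not among them. On log2(TPM + 1), limma called 3 higher (6.37%) and *Slc12a2* lower (2.49%), and on log2(TPM + 0.1) it called 6 higher (7.34%) and 0 lower (0.934%). The 3 called higher by both were *Slc6a21*, *Slc12a3* and *Slc6a4*. With a minimum mean of 5 TPM, 0 of 7 members were called (0.119% of genes higher and 0.0% lower, with 1 member higher and 1 lower at an unadjusted p under 0.05, as were 13.3% of genes), and with a minimum of 1 TPM *Slc12a3* was the 1 of 15 called higher (0.114%, and 0.0% lower). With every library drawn down to the smallest total, 0 of 9 tested members were called (0.171% of genes higher and 0.0% lower, with 2 members higher at an unadjusted p under 0.05, as were 10.5% of genes in either direction). Leaving out both libraries of replicate number 1, an alternative chosen after the data were seen, gave 8 higher members (9.79%), 7 of them among the 9.

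**Figure D4:**
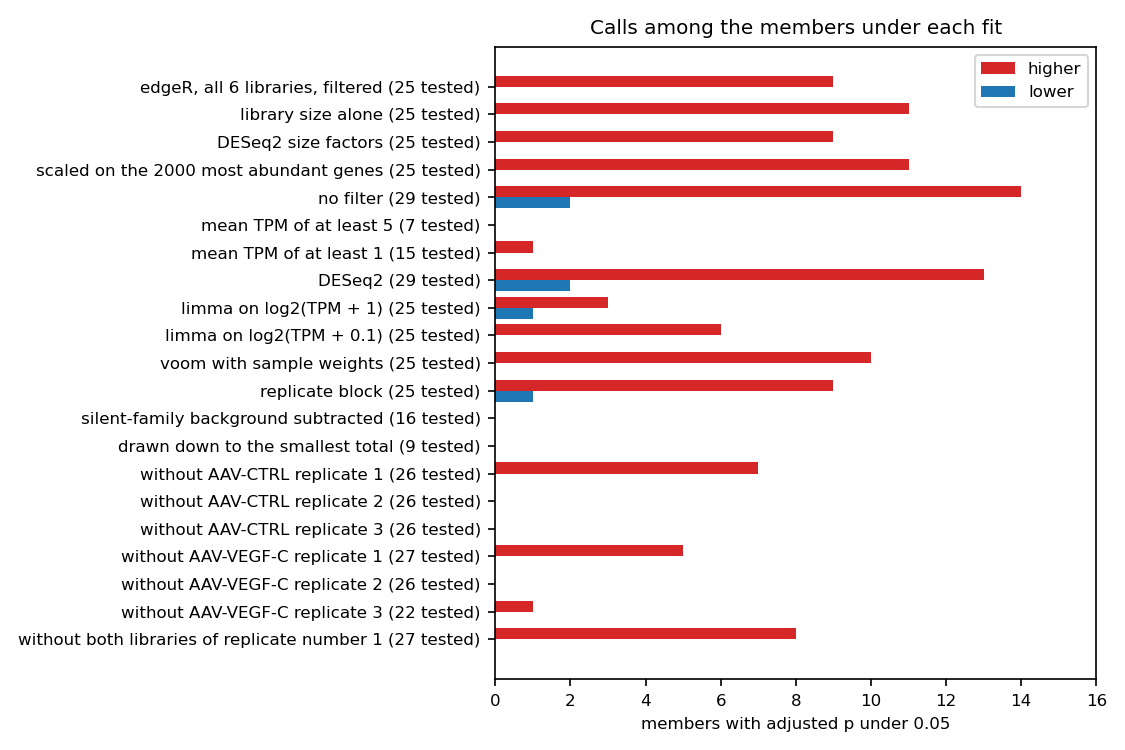
Number of members called higher (red) and lower (blue) at an adjusted p under 0.05 under each fit, with the number of members tested in brackets. The count of higher members runs from 0 to 14 and that of lower members from 0 to 2.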

How the data were processed

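Sorted dural LECs gave 6 total RNA libraries made with a stranded kit for low input. The tables the authors deposited hold an estimated count for each gene, without scaling to depth, and the matching TPM, in which gene length and library total are taken into account. The submitters' processing notes name FastQC, Trimmomatic, DRAGEN, Picard and the build mm10, without versions or roles, while the counting program, its annotation and its use of strand and of molecular identifiers are not given in the sources used here. Gene identifiers matched GENCODE M21 in 98.1% of cases with the version and in 99.5% without it, so positions on GRCm38 were taken from it. Promoter windows came from RefSeq.

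Groups came from the labels. Counts were rounded, genes kept by filterByExpr, libraries scaled by TMM factors, and groups compared by the quasi-likelihood test of edgeR (version 4.0.16, R 4.3.3) with Benjamini-Hochberg adjustment over all genes at 0.05. All adjusted p are from edgeR unless DESeq2 (version 1.42.0, the tool of the study) or limma (version 3.58.1) is named. The scripts were tested on simulated data. For single values, an exact two-sided permutation test over samples was used. Ratios of pooled counts have exact 95% intervals for counting error only, and 3 counts per library were taken as the floor. Totals of 564475 to 12399498 counts limit the low genes of AAV-VEGF-C most. Alternatives covered scaling, filters, tool, pseudocount, depth, background and left-out libraries. The p-values measure the spread between 3 pools per group.

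The transporters, the related lists and the rule for named genes (all transporters, the sort markers, and up to 3 genes per list and direction by fold change among called genes without overlap, otherwise by level) were chosen with earlier results of these data known. Values of 2 transporters and 1 related gene are not reported here, and the counts include them. The labels tie the replicate numbers to repeats of the experiment. After the group means were removed, libraries 1, 2 and 3 of the groups correlated over genes with their namesakes at 0.37, 0.28 and 0.15. AAV-CTRL 3 correlated more with AAV-VEGF-C 2 (0.22) than with its namesake, so the pair numbered 3 rests on the labels. The numbers were taken to pair the libraries. Replicates differed by more than sampling noise (chi-square 7.70 or more per degree of freedom).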

Additional observations from a re-analysis of the deposited data

How the results depend on the processing

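The 8 named transporters called higher had a positive fold change in 134 of 134 alternative fits that tested them. These fits reuse the libraries on which the 8 were called higher, so the shared sign is no independent evidence on direction. The number called, 9 of 25, did not hold. It was 14 of 29 without a filter on low counts, 0 of 7 when a gene needed 5 TPM on average (1 higher and 1 lower at an unadjusted p under 0.05), 1 of 15 when it needed 1 TPM, 3 with limma on log2(TPM + 1), 0 of 16 with the silent-family density subtracted, 0 of 9 with all libraries drawn down to the smallest total (2 higher at an unadjusted p under 0.05), and 0 to 7 when each library was left out in turn. Transporters called lower numbered 0 with edgeR, 2 without the filter, 2 with DESeq2 (*Slc6a6* and *Slc12a2*), 1 with limma on log2(TPM + 1) and 1 with the replicate block, which changed no other call among the transporters. In the related lists, 17 genes were called higher (10.9%, beside 10.5% of all genes). It became 32 without the filter (17.3%, beside 21.1%), 30 with DESeq2 (16.2%, beside 12.5%), 8 with limma on log2(TPM + 1) (5.13%, beside 6.37%), 7 with limma on log2(TPM + 0.1) (4.49%, beside 7.34%), 0 with either TPM minimum, with the background subtracted or with counts drawn down, 0 to 12 with a library left out (0.0% to 7.36%, beside 0.0% to 9.73%), and 10 without both libraries of replicate number 1 (5.95%, beside 9.79%), an alternative chosen after the data were seen. The 3 called lower became 0 with scaling on the 2000 most abundant genes, 22 without the filter, 9 with DESeq2, 8 and 5 with limma, 6 with voom, 10 with the block, 0 with either TPM minimum, the subtraction or the drawing down, 0 to 3 with a library left out and 5 without both libraries of replicate number 1.

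*Slc12a5* was 2.16 with voom and 1.57 with limma on log2(TPM + 1), neither of which called it (adjusted p = 0.0823 and 0.101). Of 270 fits of named transporters that were not called, 27 changed sign. *Slc12a7* was 0.12 with drawn-down counts. *Slc12a9* was 0.024 with DESeq2 size factors, 0.33 with scaling on the most abundant genes, 0.11 with the TPM minimum of 1, 0.029 with voom, 0.11 with drawn-down counts and -0.27 to 0.15 with a library left out. *Slc6a11* was -0.0083 by library size alone, -0.11 without the filter, -0.26 and -0.17 with limma, -0.28 with the background subtracted and -0.47 to 0.48 with a library left out. *Slc6a17* was -0.69 and -0.92 with limma. *Slc6a7* was -0.14 without the filter, -0.0016 with DESeq2, -0.55 and -0.91 with limma, -0.21 with the background subtracted and -0.36 to 0.72 with a library left out. The median of all tested genes was -0.10 by library size alone, 0.33 with scaling on the most abundant genes, and -0.72 and -1.04 in the limma fits with pseudocounts of 1 and 0.1. Causes of these differences were not tested, except that fewer genes reach the test under the TPM minimums and the drawing down. Depth limits every statement on genes with a few counts in AAV-VEGF-C 1.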
